A study of Mus musculus with 12 samples.

Results

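The Schlafen genes Slfn1, Slfn2, Slfn5, Slfn8 and Slfn9 were followed in plasmacytoid dendritic cells stimulated with 3 classes of CpG oligodeoxynucleotide. They were taken by symbol from a table of 21573 genes, and all 5 were found. BALB/c mice at postnatal day 56 to 63 gave the bone marrow from which the cells were taken. Cultures labelled CpG-A, CpG-B and CpG-C received 0.5 µM of the named class during 24 h, and the remaining group was labelled control. Each of the 4 groups had 3 RNA-seq libraries, and the sort that preceded RNA extraction is not described in the labels. Whether replicates are separate animals or cultures is not stated, so that p-values measure only the spread between these libraries, which may be technical.

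Schlafen genes are a family of vertebrate genes, clustered in the mouse on chromosome 11, that are induced by type I interferon and by Toll-like receptor ligands in several immune cells. The short proteins Slfn1 and Slfn2 are known from mouse lymphocytes and macrophages, where Slfn2 is needed for T cells to stay quiescent and binds transfer RNA, and Slfn1 slows the growth of thymocytes when overexpressed. The long proteins Slfn5, Slfn8 and Slfn9 carry a helicase-like part, and a human relative, SLFN11, cleaves transfer RNA and limits virus production. Plasmacytoid dendritic cells detect CpG DNA through TLR9 and answer with type I interferon. The classes differ in structure. CpG-A combines a phosphodiester palindrome with phosphorothioate ends rich in guanine. CpG-B is linear and fully phosphorothioate. CpG-C is fully phosphorothioate and holds a palindrome.

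Expression was given as FPKM, a level per transcript length and library size, so that levels can be compared between genes. Differences between groups are differences of mean log2(FPKM + 1). limma was applied to the 11641 genes that reached 1 FPKM in 3 or more libraries, and a difference was called when its adjusted p lay below 0.05. All 5 Schlafen genes passed that minimum, Slfn1 only through stimulated libraries. Depth is not stated in the table, and a rough estimate from the spacing of low values was 21.8 to 27.7 M fragments per library. Within groups, libraries correlated with their fellow replicates at 0.763 to 0.864 on average, and in every group the lowest value was that of the library numbered 1. All 12 marker genes of plasmacytoid dendritic cells reached 1 FPKM in every control, CpG-A and CpG-C library, and 11 of 12 did in every CpG-B library. In these bulk samples, fewer cells of a type and less RNA per cell cannot be told apart.

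The 5 genes lie within 170601 bases of chromosome 11 (mm10, chr11:82952068-83122668). Slfn5 (gene 327978, plus strand, 82952068 to 82964855) comes first, followed by Slfn9 (gene 237886, minus strand, 82978390 to 82992215) and Slfn8 (gene 276950, minus strand, 83002150 to 83040556). Slfn2 (gene 20556, plus strand, 83065112 to 83070678) and Slfn1 (gene 20555, plus strand, 83116845 to 83122668) come last. The RefSeq start regions of Slfn5, Slfn8 and Slfn9 are shown because these were the members whose start region held the core of an interferon-stimulated response element, a short sequence found in the start regions of many interferon-induced genes. Slfn8 has a second annotated start, whose window holds the same match further upstream. Each window runs from 250 bases before to 50 bases after the annotated start on GRCm38.p6, is written 5′ to 3′ on the gene's own strand, and has the matching bases in capitals.
Slfn5 (chr11:82951852-82952151, plus strand): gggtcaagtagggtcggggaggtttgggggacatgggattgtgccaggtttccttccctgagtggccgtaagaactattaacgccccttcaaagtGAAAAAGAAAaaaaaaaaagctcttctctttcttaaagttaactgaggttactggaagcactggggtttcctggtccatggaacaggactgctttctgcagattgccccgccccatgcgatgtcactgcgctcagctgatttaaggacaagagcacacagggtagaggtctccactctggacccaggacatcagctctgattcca
Slfn8 (chr11:83020761-83021060, minus strand): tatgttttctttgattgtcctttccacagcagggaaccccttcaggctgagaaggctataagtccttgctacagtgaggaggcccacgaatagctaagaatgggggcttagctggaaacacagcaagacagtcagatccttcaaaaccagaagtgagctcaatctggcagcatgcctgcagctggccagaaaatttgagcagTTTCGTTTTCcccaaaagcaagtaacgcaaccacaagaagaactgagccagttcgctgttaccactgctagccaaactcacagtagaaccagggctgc
Slfn9 (chr11:82991781-82992080, minus strand): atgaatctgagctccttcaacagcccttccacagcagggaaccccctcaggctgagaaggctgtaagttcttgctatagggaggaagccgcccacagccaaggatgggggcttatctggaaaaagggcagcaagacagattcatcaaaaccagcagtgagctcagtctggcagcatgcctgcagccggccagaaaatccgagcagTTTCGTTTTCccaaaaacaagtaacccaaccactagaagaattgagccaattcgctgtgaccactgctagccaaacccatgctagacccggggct

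The letters searched were GAAA, any 2 bases and GAAA again, on both strands, and they were present in 1079 of 27025 genes with a start region (3.99%). Slfn5 held GAAAAAGAAA on its own strand at the head of a run of adenines. In Slfn8 and Slfn9 the match was on the opposite strand and had the same letters, TTTCGTTTTC as printed. It began 48 bases before the start of Slfn8 and 45 bases before that of Slfn9. The start regions of Slfn8 and Slfn9 were alike over their length, with 252 identical columns of 312 in a global alignment (80.8%), while the other pairs of members had between 48.5% and 53.0%. The start regions of Slfn1 and Slfn2 did not hold the letters. No member's window held, on either strand, an NF-kB core (GGGA, any base, TTTCC), which was present in 0.466% of genes. Only this form was searched, so shorter or variant forms are not covered. The Slfn2 window, not printed here, held gggatttcc, which lacks the middle base. A match is a description of letters, and binding was not measured here.

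Slfn2 had the highest level of the family in control cells, Slfn8 and Slfn5 had middle levels, Slfn9 was low and Slfn1 was near 0. In control replicates 1, 2 and 3, Slfn2 stood at 128.52, 28.22 and 107.08 FPKM. Slfn8 stood at 31.29, 10.48 and 33.35 FPKM and Slfn5 at 14.55, 4.81 and 19.79 FPKM. Control replicate 2 had the lowest of the 3 control values for each of these genes. Slfn9 was at 0.46, 2.51 and 2.21 FPKM, and Slfn1 was listed at 0.02, 0.02 and 0 FPKM.

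The question of the first comparisons was which Schlafen transcripts each CpG class changed from control. CpG-B raised Slfn2 and Slfn8, so 2 of 5 members were called higher, where 3.26% of all genes tested were called higher. CpG-C raised Slfn5, 1 of 5 members, against 1.34% of genes called higher. With CpG-A limma called 0 of 5 members, against 1.05% of genes called higher, and 2 of 5 had an unadjusted p below 0.05, against 12.8% of genes in either direction. By that measure 2 of 5 members passed with CpG-B and 1 of 5 with CpG-C, against 18.6% and 12.7% of genes. All 3 stimulated libraries lay above all 3 control libraries for 2 of 5 members with CpG-A, 4 with CpG-B and 1 with CpG-C, against 5.78%, 10.1% and 6.64% of genes. None fell, and the log2 difference from control was above 0 for all 5 members with every class, where 38.9%, 41% and 40.2% of genes lay above 0 with CpG-A, CpG-B and CpG-C. Slfn1 was at most 0.02 FPKM in control and passed the minimum level only through stimulated libraries. It could therefore hardly lie below 0, and its direction is not read as a result. The median over the 5 members was 1.42 with CpG-A, 2.17 with CpG-B and 1.06 with CpG-C. The CpG-C median is the value of Slfn1, which rested on CpG-C replicate 1 and was -0.0190 without it. Over all genes tested it was -0.27, -0.25 and -0.22. The 3 comparisons share the same control libraries.

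**Figure D1:**
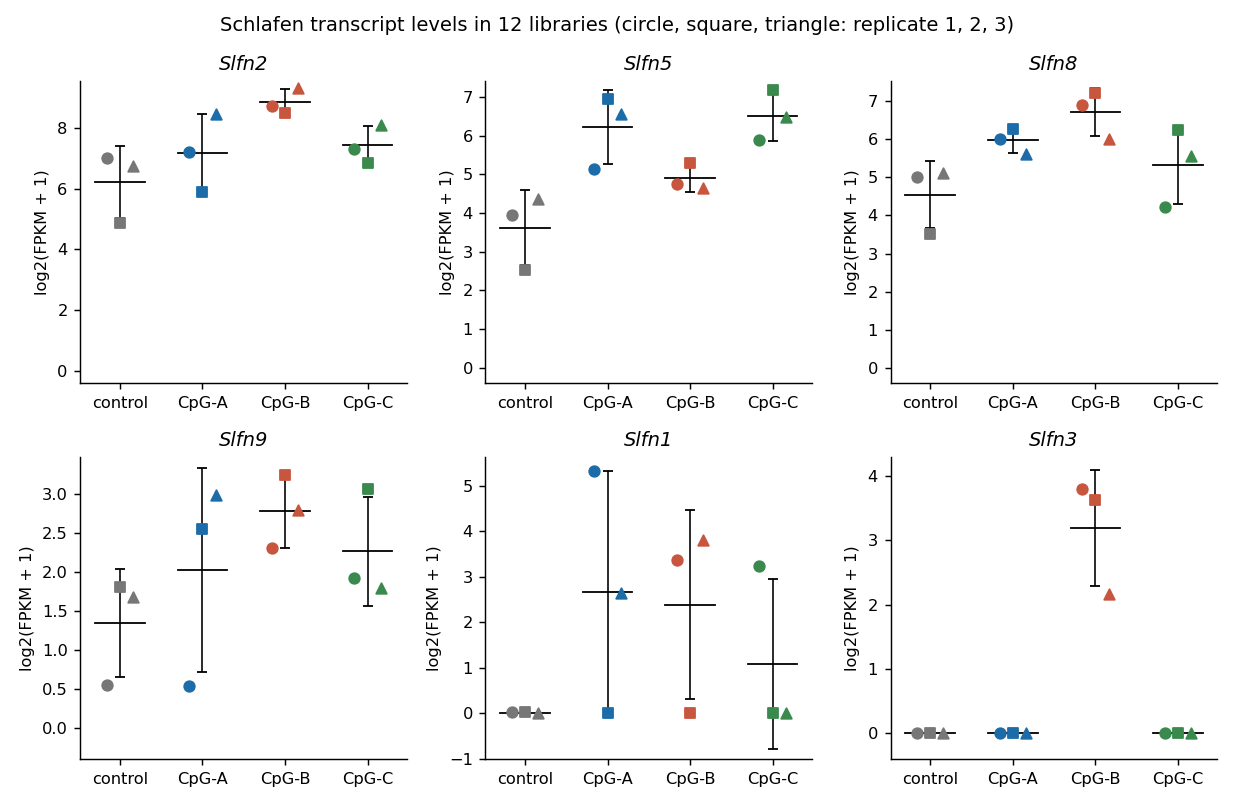
Level of each gene as log2(FPKM + 1) in every library, by group, for Slfn2, Slfn5, Slfn8, Slfn9, Slfn1 and the related gene Slfn3. Points are libraries, horizontal bars are group means and whiskers 1 SD (n = 3). The CpG-B libraries lie above the control libraries for Slfn2, Slfn5, Slfn8, Slfn9 and Slfn3, and Slfn1 is at 0 in replicate 2 of every CpG group.

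Slfn2, the quiescence gene, was highest with CpG-B. CpG-B replicates 1, 2 and 3 had 421.73, 358.76 and 635.85 FPKM, every value above every control value. With CpG-A the libraries had 147.97, 58.07 and 348.14 FPKM, and with CpG-C 158.4, 113.27 and 273.34 FPKM. Both of these groups overlapped control, and neither overlapped CpG-B. Control averaged 87.9 ± 52.8 FPKM and CpG-B 472 ± 145 FPKM (SD, n = 3 per group), a log2 difference of 2.63 (SE 0.65, limma adjusted p = 0.0253). The call was lost without CpG-B replicate 1 (limma adjusted p = 0.0717), CpG-B replicate 2 (0.0563), CpG-B replicate 3 (0.0972) or control replicate 2 (0.116). It was also lost without the minimum level (0.133), without the mean-variance trend (0.0735) and without the 4 libraries numbered 1 (0.0602). The log2 difference stayed between 1.96 and 3.09 under all 23 alternatives. With CpG-A Slfn2 differed from control by 0.97 (95% interval -0.41 to 2.35) and with CpG-C by 1.20 (-0.17 to 2.58), and neither was called. The RefSeq gene Gm20234 (83065741 to 83067700) lies within the Slfn2 span, and whether its reads were counted to Slfn2 was not tested.

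Slfn8, a long member with a helicase-like part, also rose with CpG-B. Its CpG-B libraries had 118.6, 147.57 and 63.72 FPKM, all above the highest control value of 33.35 FPKM. CpG-A gave 63.27, 76.48 and 48.08 FPKM, also above every control library, and CpG-C gave 17.6, 73.92 and 46.06 FPKM, which overlapped control. The log2 difference was 2.17 with CpG-B (SE 0.60, limma adjusted p = 0.0482), 1.42 with CpG-A (95% interval 0.13 to 2.71, limma adjusted p = 0.332) and 0.79 with CpG-C (-0.50 to 2.08, 0.631). The CpG-B call lay close to the threshold and was kept in 6 of 23 alternatives, with limma adjusted p between 0.0209 and 0.191 and a difference between 1.65 and 2.51. Leaving out any CpG-A, CpG-B or control library, or CpG-C replicate 3, ended it, with limma adjusted p from 0.0501 without CpG-A replicate 1 to 0.191 without control replicate 2. The replicate number as a block also ended it (limma adjusted p = 0.0516).

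The Slfn8 row of the table covers more than Slfn8. Its span reaches 83040556, whereas RefSeq ends Slfn8 at 83020810 and places the pseudogene Slfn10-ps at 83028123 to 83040533 on the same chromosome. A provider-named gene, BGI_novel_G000556, lies inside that part on the same strand (83027269 to 83040372) and had 5.06, 6.45 and 5.26 FPKM with CpG-B against 0.06, 0 and 0 FPKM in control. It was 0 to 0.61 FPKM with CpG-A and 0.01 to 0.79 FPKM with CpG-C. It reached 1 FPKM only with CpG-B and passed the minimum through that group alone, so its levels are given with no test. Among the 50-base words of GENCODE transcripts, 14.6% of those of Slfn8 and 11.2% of those of Slfn9 also occurred in another Schlafen gene, most of them in Slfn10-ps, so the split of reads between these genes is uncertain. The share was 4.27% for Slfn2, 0.606% for Slfn1 and 0 for Slfn5.

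Slfn5, whose human counterpart has been described as a repressor of interferon-driven transcription, was highest with CpG-C and CpG-A. CpG-C libraries had 57.96, 144.46 and 88.17 FPKM and CpG-A libraries 34.3, 123.63 and 93.71 FPKM. CpG-B libraries had 26.03, 38.31 and 23.92 FPKM. All 9 stimulated libraries lay above the highest control value of 19.79 FPKM, which 2.22% of genes tested did in this direction. Control averaged 13.1 ± 7.60 FPKM and CpG-C 96.9 ± 43.9 FPKM (SD, n = 3 per group), a log2 difference of 2.89 (SE 0.62, limma adjusted p = 0.0253). This call was lost without CpG-C replicate 2 (limma adjusted p = 0.0999), CpG-C replicate 3 (0.094) or control replicate 2 (0.11), without the minimum level (0.0942), without the trend (0.0649) and with only the compared groups in the fit (0.0586).

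With CpG-A, Slfn5 missed the threshold at a log2 difference of 2.60 (95% interval 1.27 to 3.93, limma adjusted p = 0.0537). With the replicate number as a block it was called (limma adjusted p = 0.0437), and 285 of all genes were called in place of 171. It was called in 8 of 23 alternatives, this block included, among them both other scalings (0.0277 and 0.039) and leaving out CpG-A replicate 1 (0.0252) or control replicate 3 (0.0464). With CpG-B the difference was 1.27 (-0.06 to 2.60, limma adjusted p = 0.292). For the mean of the 3 classes against control Slfn5 was the 1 member called, at 2.25 (SE 0.51, limma adjusted p = 0.021), where 3.75% of genes were called in either direction. Without control replicate 2 this value was 1.71 and the limma adjusted p = 0.152. The Slfn5 span overlaps Slfn5os (82942341 to 82960681), named as an opposite-strand transcript, and whether the counting used strand is not given in the sources used here.

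Slfn9, the neighbour of Slfn8 and most like it in its start region, had 3.93, 8.44 and 5.91 FPKM with CpG-B, above every control library. CpG-A gave 0.45, 4.87 and 6.96 FPKM and CpG-C 2.8, 7.39 and 2.46 FPKM, both overlapping control. No difference of Slfn9 was called. From control it differed by 1.43 with CpG-B (95% interval -0.40 to 3.26), 0.68 with CpG-A (-1.15 to 2.51) and 0.92 with CpG-C (-0.92 to 2.75).

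Slfn1, the other short member, split the replicates. It stood at 39.23, 0 and 5.29 FPKM with CpG-A, at 9.28, 0 and 13.01 FPKM with CpG-B and at 8.41, 0 and 0 FPKM with CpG-C. Replicate 2 was listed at 0 in each of the 3 stimulated groups, and no control library was above 0.02 FPKM. The log2 differences of 2.64 with CpG-A (95% interval -0.18 to 5.46), 2.37 with CpG-B (-0.45 to 5.19) and 1.06 with CpG-C (-1.76 to 3.88) were not called. Slfn1 passed the minimum level only through stimulated libraries, so the direction of these differences is not read as a result. None of 15 housekeeping genes and none of 72 ribosomal protein genes was at 0 in any library. These genes were not matched to the level of Slfn1, and the cause of its values at 0 was not tested. The RefSeq gene Gm51911 overlaps Slfn1 in position.

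**Figure D2:**
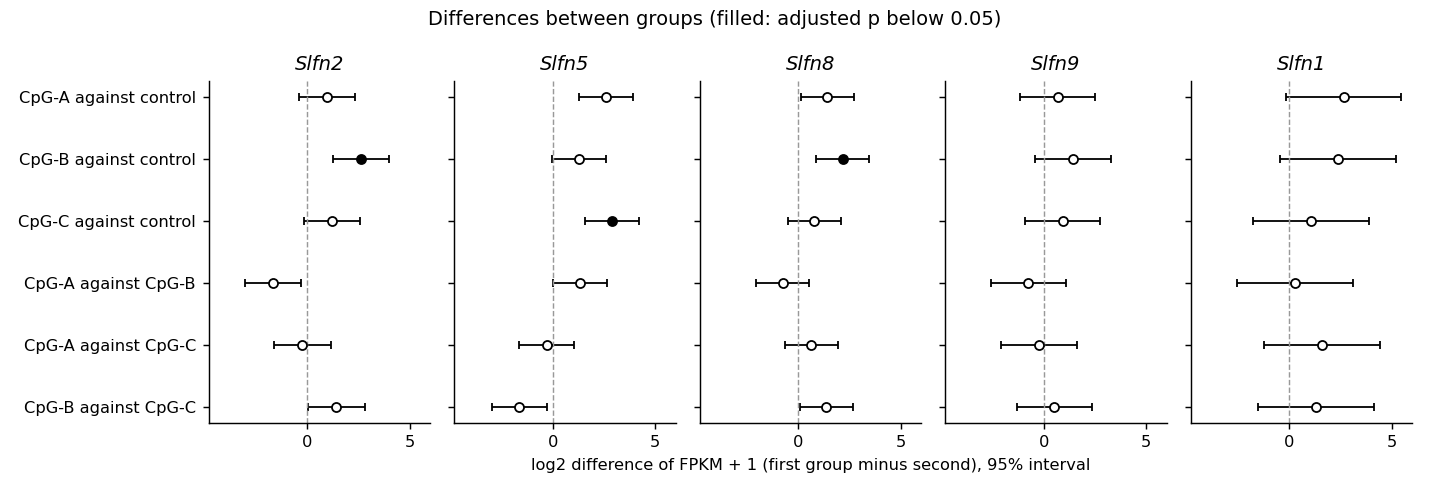
Log2 difference of FPKM + 1 between groups, first group minus second, for each of the 5 members with its 95% interval from limma. Filled points passed an adjusted p below 0.05: Slfn2 and Slfn8 with CpG-B and Slfn5 with CpG-C against control, and no comparison between classes.

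The next question was whether the classes, given at the same dose and time, differed from each other in these genes. Of the 15 pairwise differences between classes (5 genes and 3 pairs), limma called 0 (4 with an unadjusted p below 0.05), where 2.43% of genes were called between CpG-A and CpG-B, 1.35% between CpG-B and CpG-C and 0% between CpG-A and CpG-C. By pair these were 1, 3 and 0 of 5 members, against 14.1%, 11.8% and 4.01% of genes. For the linear CpG-B against the palindrome-bearing CpG-C of the same backbone, Slfn2 differed by 1.43 (95% interval 0.05 to 2.80, limma adjusted p = 0.4), Slfn8 by 1.38 (0.09 to 2.67, 0.374) and Slfn5 by -1.62 (-2.95 to -0.29, 0.285). CpG-B libraries lay above every CpG-C library for Slfn2 and below every CpG-C library for Slfn5, and 18.4% of genes did not overlap in that comparison.

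Between CpG-A and CpG-B, Slfn2 differed by -1.66 (95% interval -3.04 to -0.28, limma adjusted p = 0.246) without overlap, which 19.7% of genes shared in either direction, and Slfn5 by 1.33 (-0.0026 to 2.65, 0.356) with overlap. With the replicate number as a block Slfn2 was called here (limma adjusted p = 0.0424), and 434 of all genes were called in place of 283. The intervals of Slfn8 (-2.03 to 0.54), Slfn9 (-2.58 to 1.08) and Slfn1 (-2.55 to 3.09) included 0. CpG-A and CpG-C, both with a palindrome but with different backbones, had differences of -0.23 for Slfn2 (-1.61 to 1.14), -0.29 for Slfn5 (-1.62 to 1.04) and 0.63 for Slfn8 (-0.66 to 1.92). The libraries of these classes overlapped for all 5 members, and 7.09% of genes did not overlap. These intervals reach past 1 log2 unit on at least 1 side, so differences of that size are not excluded.

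The ratio of Slfn2 to Slfn5 within a library, chosen after its values were seen and given without a test, was 16.2, 9.36 and 26.6 with CpG-B. In control it was 8.83, 5.87 and 5.41. It was 4.31, 0.470 and 3.72 with CpG-A and 2.73, 0.784 and 3.10 with CpG-C. In these 12 libraries CpG-B was highest, control between, and CpG-A and CpG-C together at the bottom, without overlap of these 3 ranges. The gaps were narrow, from 9.36 to 8.83 and from 5.41 to 4.31. How often other pairs of genes separate the groups in this way was not counted.

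**Figure D3:**
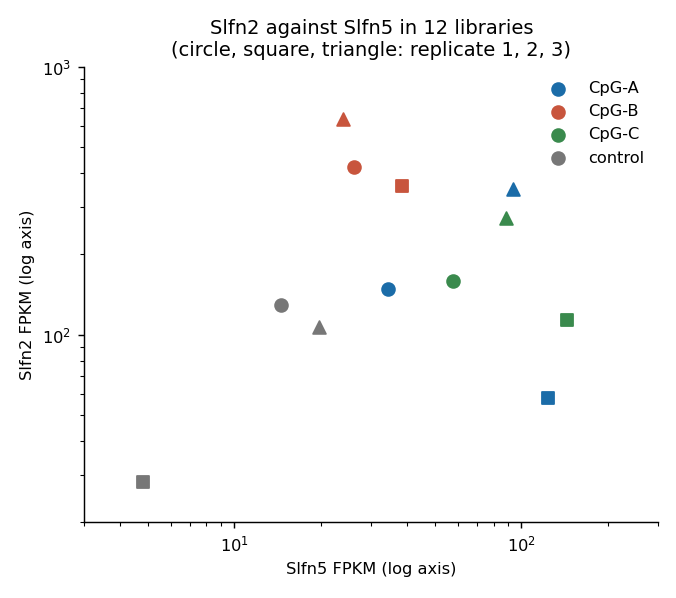
FPKM of Slfn2 against FPKM of Slfn5 in each of 12 libraries, both on log axes, with colour for the group and marker shape for the replicate number. CpG-B libraries combine the highest Slfn2 (358.76 to 635.85 FPKM) with Slfn5 of 23.92 to 38.31 FPKM, while CpG-A and CpG-C libraries reach 34.3 to 144.46 FPKM of Slfn5.

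The summed level of the 5 genes was 128 ± 71.1 FPKM in control, 350 ± 132 FPKM with CpG-A, 625 ± 103 FPKM with CpG-B and 331 ± 82.7 FPKM with CpG-C (SD, n = 3 per group). Slfn2 made up 66.9% ± 6.17 of the sum in control and 74.4% ± 10.5 with CpG-B, against 47.8% ± 23.9 with CpG-A and 54.9% ± 18.6 with CpG-C. The share of Slfn5 was 10.3% ± 1.93 in control, 4.88% ± 1.88 with CpG-B, 25.9% ± 18.6 with CpG-A and 29.3% ± 11.6 with CpG-C. Slfn8 held between 13.4% and 20.4% on average in the 4 groups, and Slfn9 between 1.00% and 2.36%. The average share of Slfn1 was at most 4.94%, in the CpG-A group, where replicate 1 had 13.8%. In CpG-A replicate 2 and CpG-C replicate 2 Slfn5 exceeded Slfn2, which it did in none of the other 10 libraries.

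**Figure D4:**
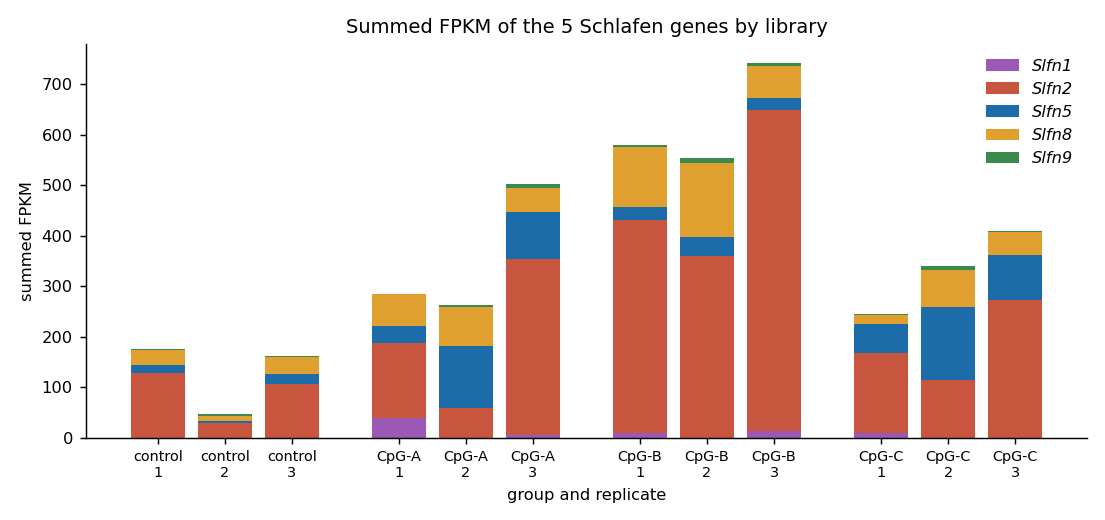
Summed FPKM of the 5 Schlafen genes in each library, stacked by gene, with group and replicate number on the horizontal axis. The CpG-B libraries sum to 553 to 742 FPKM, above all other libraries, and Slfn2 is the largest part of each of them.

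The other genes of the table named Slfn were Slfn3, Slfn4, Slfn14 and Slfnl1. Slfn3 (gene 20557, chromosome 11, 83191330 to 83215154), a member of intermediate length, had 12.87, 11.37 and 3.47 FPKM with CpG-B and was listed at 0 in all 9 other libraries. It passed the minimum level only through the CpG-B group. It therefore had to differ once it passed, and its levels are given in the text with no test and no fold. Without any 1 CpG-B library it falls below the minimum. Slfn3 shared 7.39% of its 50-base words with Slfn4. Slfn4 was at most 0.03 FPKM and Slfn14 at most 0.01 FPKM. Slfnl1, which lies on chromosome 4, reached 1.34 FPKM in control replicate 1 and at most 0.03 FPKM elsewhere.

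Of 30 other genes within 500000 bases of the cluster, 17 were tested. With CpG-A 1 was called higher, with CpG-B 2 and with CpG-C 0, against 1.05%, 3.26% and 1.34% of all genes tested. None was called lower in these comparisons. One of the CpG-B calls, BGI_novel_G000556, is of the gene that passed the minimum only through that group, so it is not read as a result. At an unadjusted p below 0.05 there were 2, 3 and 3 of 17, against 12.8%, 18.6% and 12.7% of all genes. The CpG-B count includes BGI_novel_G000556. For the mean of the classes Ccl5 was called higher and BGI_novel_G000553 lower (-3.17, limma adjusted p = 0.0485), where 3.75% of all genes were called in either direction. The genes called by class were BGI_novel_G000556, described with Slfn8, and the chemokine gene Ccl5 (83525778 to 83530518), with log2 differences of 6.50 with CpG-A and 9.02 with CpG-B. The CpG-A call of Ccl5 was lost without CpG-A replicate 1 (limma adjusted p = 0.106), control replicate 1 (0.0808) or control replicate 2 (0.0691). The median of the 17 neighbours was -0.50 with CpG-A, -0.12 with CpG-B and 0.29 with CpG-C.

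**Figure D5:**
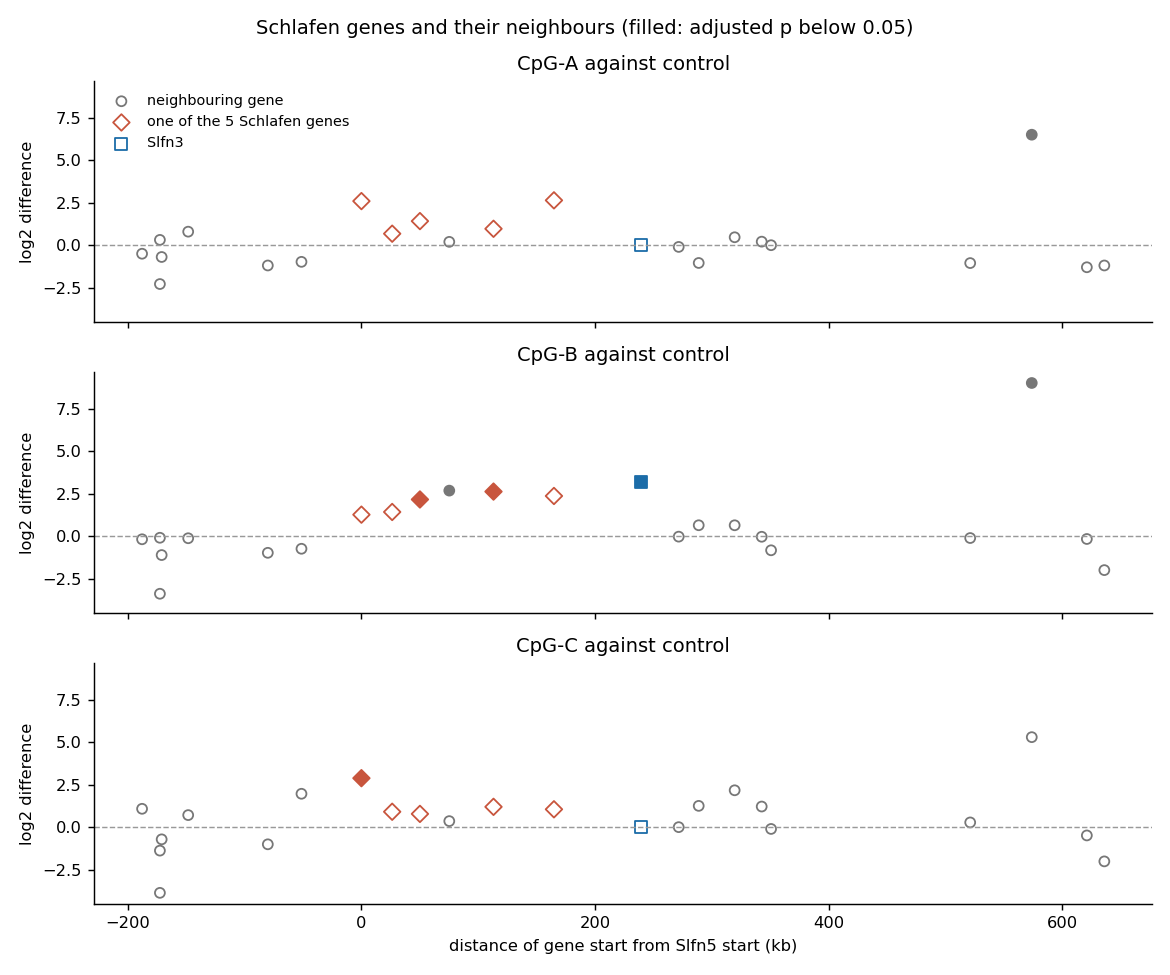
Log2 difference from control for the Schlafen genes (diamonds, and a square for Slfn3) and for tested neighbouring genes (circles), by distance of the gene's start from the start of Slfn5 in kb, with 1 panel per CpG class. Filled symbols passed an adjusted p below 0.05. Slfn3 and BGI_novel_G000556 passed the minimum level only through the CpG-B libraries, so their position and fill in the CpG-B panel are not read as results. The 5 diamonds lie above 0 in each panel, and the far filled circle is Ccl5. Slfn1 passed the minimum level only through stimulated libraries, so the direction of its diamond is not read as a result.

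Interferon-stimulated genes, the class to which the family is usually assigned, rose with every class. Of 45 on the list, 26 rose with CpG-A, 29 with CpG-B and 29 with CpG-C, and none fell. Of all genes tested 1.05%, 3.26% and 1.34% were called higher in these comparisons. Ifit3, an antiviral gene at 0.81 FPKM in control, rose to 333.5 FPKM with CpG-A, 572.2 FPKM with CpG-B and 366.9 FPKM with CpG-C. The median of the list was 3.27, 3.37 and 3.23 log2 units, against 1.42, 2.17 and 1.06 for the 5 Schlafen genes. The value of 1.06 is that of Slfn1, which rested on CpG-C replicate 1. No member of the list was called between any pair of classes by limma. At an unadjusted p below 0.05 there were 7 between CpG-A and CpG-B, 8 between CpG-B and CpG-C and 0 between CpG-A and CpG-C. Of all genes 14.1%, 11.8% and 4.01% passed that measure, in the same order. Of 18 genes of the interferon receptor and JAK-STAT pathway, Usp18, an inhibitor of the receptor, rose with each class (log2 differences 4.68, 4.43 and 4.56 for CpG-A, CpG-B and CpG-C). Socs1, another inhibitor, averaged 0.0133 FPKM in control, 34.2 FPKM with CpG-A and 25.5 FPKM with CpG-B. It passed the minimum level only through stimulated libraries, so these levels are given with no test.

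The lists around the known roles of Slfn2 held few called genes. Of 14 tested genes of lymphocyte quiescence, none was called with CpG-A or CpG-C (2 and 3 at an unadjusted p below 0.05, against 12.8% and 12.7% of all genes). With CpG-B the median log2 difference of the list was -1.69, against -0.25 over all genes. An unadjusted p below 0.05 was reached by 5 of 14 there, against 18.6% of all genes. Of the 14, 2 were called lower with CpG-B, where 2.48% of all genes fell. These were Klf2, a quiescence transcription factor, from 63.58 to 1.05 FPKM (log2 difference -5.14, limma adjusted p = 0.000513), and Fam65b (-2.28, limma adjusted p = 0.02), whose call was lost when replicate 1 or 2 of the CpG-B group or 2 or 3 of the control group was left out (limma adjusted p from 0.0623 to 0.0894). The Klf2 call passed all 23 alternatives. Among 24 tested proliferation genes 1 rose with CpG-B, where 3.26% of all genes rose. This was Ccnd2, which encodes cyclin D2 (4.85, limma adjusted p = 0.0021). The median of the list with CpG-B was 1.46. An unadjusted p below 0.05 was reached by 8 of 24 there, against 18.6% of all genes. With CpG-A 1 fell, where 49 of 11641 genes fell. This was Cdkn2c, an inhibitor of cyclin-dependent kinases (-4.18, limma adjusted p = 0.0472, kept in 7 of 23 alternatives). Its call was lost when replicate 1 or 2 of the CpG-A or control group, 3 of the CpG-C group or any CpG-B library was left out. Of 14 tested genes of transfer RNA cleavage and modification, limma called 0 in any comparison, with 0 to 4 at an unadjusted p below 0.05. Against control these were 3 with CpG-A, 1 with CpG-B and 4 with CpG-C, where 12.8%, 18.6% and 12.7% of all genes passed. Between CpG-A and CpG-B there was 1, where 14.1% of all genes passed.

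Markers of other cell types were read beside the CpG-B changes. The plasmacytoid dendritic cell list had 6 of 12 genes called lower with CpG-B than in control, where 2.48% of all genes were called lower. Among them was Siglech, a surface lectin of these cells, from 2721 to 195.6 FPKM. The summed level of this list ranged from 6381 to 22689 FPKM with CpG-B and from 14706 to 24412 FPKM in control. Of 6 natural killer cell markers 2 were called higher with CpG-B, Ncr1 and Prf1, where 3.26% of all genes were called higher. The Prf1 call was lost without CpG-B replicate 1 (limma adjusted p = 0.0744) or control replicate 2 (0.0577). Ncr1 was at most 0.06 FPKM in control and passed the minimum level only through stimulated libraries, so its call is not read as a result. It had 46.29 to 89.33 FPKM with CpG-B, 19.31 to 68.17 FPKM with CpG-A and 5.12 to 24.21 FPKM with CpG-C. Klrd1, on the same list, lay lower with CpG-B (86.72 to 241.85 FPKM) than in control (326.69 to 723.92 FPKM), without a call. The list summed to 646 to 1530 FPKM with CpG-B against 432 to 809 FPKM in control. Most of the CpG-B sum was Nkg7 (442.65 to 1145.64 FPKM), which ranged from 0.79 to 415.82 FPKM in control. Of 7 tested T cell markers 2 rose, Thy1 and Cd8a, and 1 fell, Cd28, where 3.26% of all genes were called higher and 2.48% lower. The calls of Thy1 and Cd28 were lost without any 1 CpG-B or control library, except Thy1 without control replicate 3, and without CpG-C replicate 2 or 3. Thy1 was also lost without CpG-A replicate 3, and Cd8a was lost without replicate 3 of the CpG-B or of the control group. The T cell list summed to 296 to 441 FPKM with CpG-B against 150 to 206 FPKM in control. Most of the CpG-B sum was Cd8a (255.63 to 308.08 FPKM). Cd4, on the same list, lay lower with CpG-B (0.89 to 18.71 FPKM) than in control (35.63 to 69.94 FPKM), without a call. The T cell receptor gene Cd3e was at most 0.34 FPKM with CpG-B and at 0 in the other groups. The B cell list summed to at most 3.25 FPKM with CpG-B, with Pax5 at 0, and the neutrophil list to at most 10.8 FPKM. Monocyte and macrophage markers summed to 5542 to 9867 FPKM with CpG-B and 4332 to 6156 FPKM in control. Nearly all of that sum was Ly6c1 (5357.5 to 9537.42 FPKM with CpG-B). The median log2 difference of the 4 tested markers was -1.91, with 0 called and 4 at an unadjusted p below 0.05, against 18.6% of all genes. Ccr2 ranged from 8.66 to 39.02 FPKM with CpG-B and from 108.24 to 479.51 FPKM in control, and Csf1r and Adgre1 were at most 0.01 FPKM with CpG-B. The summed levels of conventional dendritic cell markers were 67.1 to 114 FPKM with CpG-B and 386 to 665 FPKM in control. The part of these shifts in the Slfn2, Slfn8 and Slfn3 values was not tested.

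By Pearson correlation of log2(FPKM + 1) over the 12 libraries, among 9605 known genes, the genes most like Slfn2 were Ccr7 (r = 0.97), Nfkbia (0.91) and Lpxn (0.90). Those most like Slfn5 were Gvin1 (0.94), Ly6c1 (0.92) and Kdr (0.91). For Slfn8 they were Ece1, Uqcrq and Mrps27 (0.87, 0.86 and 0.86), for Slfn9 Laptm4a, Slc25a38 and Mkln1 (0.87, 0.86 and 0.86), and for Slfn1 Jmjd7, Adrm1 and Nelfe (0.90, 0.89 and 0.88). The 12 points share 4 groups and 3 replicate numbers, and the values are descriptions of likeness. Among the members themselves r ranged from -0.17 for Slfn1 with Slfn9 to 0.59 for Slfn2 with Slfn8, and Slfn2 with Slfn5 had 0.24.

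In the authors' deposited table all 30 comparisons of the 5 members had a q-value below 0.05, the largest being 0.0289, as had 88.3% to 91.1% of all genes with a q-value in each pair of groups. The log2 ratios in the authors' deposited table were 2.70, 1.13 and 2.57 for Slfn5 with CpG-A, CpG-B and CpG-C against control, and 1.08, 2.42 and 1.04 for Slfn2.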

How the data were processed

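Total RNA of sorted cells was extracted with Trizol and made into Illumina libraries, per the labels' protocols. Strand use is not given in the sources used here. The authors deposited FPKM for each library. Tools listed in the submitters' processing notes, with their roles unstated, are RSEM 1.2.8, StringTie, HISAT, GATK and Bowtie2 2.2.5, and the build listed is mm10. The authors' log2 ratios and their p-values and q-values stand in the deposited table per the file headers, with no test named, and entered no test here. Of 21574 lines 1 was broken and left out, and 24 symbols that had turned into dates were restored from gene numbers.

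Values were changed to log2(FPKM + 1) and fitted with limma 3.58.1 (R 4.3.3), 1 mean per group over all 12 libraries, with a mean-variance trend, 8 residual and 6.81 prior degrees of freedom. p-values were adjusted by Benjamini-Hochberg over all 11641 genes tested, of which 9948 are known genes. The log2 scale with 1 added understates changes of low genes. No count test was run, since FPKM are not counts. An exact permutation test of 3 libraries against 3 cannot go below 0.1 and was not used. The method was tested on simulated data. Some marker genes and sequence sites are not reported here. The members, lists and tests were chosen with earlier results of these data known. Named genes are the members, other Slfn genes, called neighbours within 500000 bases, up to 4 called genes per list by size, and the 3 most correlated known genes per member. Deviations of same-numbered libraries from their group means correlated above 0.1 in all 3 pairs of CpG-A with control, where the blocked values are given. Blocked values are also given for Slfn8 with CpG-B and for Slfn2 between CpG-A and CpG-B. The labels do not say what a number marks. Start regions come from RefSeq (GRCm38.p6), in which all 5 members were matched by gene number, and shared 50-base words from GENCODE M21 transcripts. Alternatives were other added constants, minimum levels, scalings, library weights, no trend, a replicate block, only the compared groups, and leaving out libraries.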

Additional observations from a re-analysis of the deposited data

How the results depend on the processing

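Under 23 alternatives no member's difference from control changed sign under either other scaling, which moved the median of all genes by 0.14 to 0.25 log2 units against control. The number of members called with CpG-A (0) was 1, Slfn5, with a minimum of 5 FPKM, median-of-ratios scaling, upper quartile scaling, library weights, the replicate block and without the 4 libraries numbered 1, and 0 to 1 with any library left out. With CpG-B (2) it was 1 when 0.1 or 0.01 was added, with the replicate block and with only the compared groups, 0 without a minimum, without the trend and without the 4 libraries numbered 1, and 0 to 2 with any library left out. With CpG-C (1) it was 0 without a minimum, without the trend and with only the compared groups, and 0 to 1 with any library left out. For the mean of the classes (1) it was 0 without a minimum, 2 with library weights or the replicate block, and 0 to 2 with any library left out. Between CpG-A and CpG-B (0) it was 1, Slfn2 (limma adjusted p = 0.0424), with the replicate block. The cause of these changes was not tested.

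Counts of all genes called were 171 with CpG-A, 669 with CpG-B, 217 with CpG-C, 283 between CpG-A and CpG-B, 157 between CpG-B and CpG-C, 0 between CpG-A and CpG-C (467 at an unadjusted p below 0.05) and 436 for the mean of the classes. Without a minimum they were 102, 440, 118, 157 and 92 in that order for the first 5, and 246 for the mean of the classes. Library weights gave 1063 with CpG-B, 406 with CpG-C, 509 between CpG-A and CpG-B and 587 between CpG-B and CpG-C. Only the compared groups gave 95 with CpG-A, 144 with CpG-C, 176 between CpG-A and CpG-B and 73 between CpG-B and CpG-C. Adding 0.01 gave 150 and 90 for these 2 pairs of classes, no trend 143 with CpG-C, and leaving out the 4 libraries numbered 1 110 with CpG-A. With any library left out the counts ranged from 120 to 186 with CpG-A, 343 to 764 with CpG-B, 108 to 239 with CpG-C, 62 to 356 between CpG-A and CpG-B, 37 to 166 between CpG-B and CpG-C, 0 to 2 between CpG-A and CpG-C and 214 to 423 for the mean of the classes. The share of higher calls with CpG-B rose to 69.7% (472 and 205) under median-of-ratios and 70.9% (479 and 197) under upper quartile scaling, from 380 higher and 289 lower. The split moved by over 10 percentage points also for the mean of the classes (253 higher and 183 lower, then 296 and 116 under median-of-ratios and 300 and 109 under upper quartile scaling) and, under upper quartile scaling, with CpG-C (156 and 61, then 189 and 40) and between CpG-B and CpG-C (91 and 66, then 115 and 54).

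The labels do not say what a replicate number marks. Deviations from the group means correlated by 0.06 to 0.17 in 18 same-numbered pairs, 11 of them over 0.1, and by at most 0.03 in 36 others, so each library correlated best with its own number, a hint from the data and not from the design. All 3 pairs exceeded 0.1 for CpG-A with control, but not for the other comparisons tested. With the replicate block the Slfn8 difference of CpG-B from control was not called (limma adjusted p = 0.0516), and all genes called were 285 with CpG-A, 434 between CpG-A and CpG-B and 276 between CpG-B and CpG-C.

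Of 790 recomputed member differences 734 kept their direction and side of the threshold, 32 lost and 12 gained a call, and 12 changed sign, none of them called. Slfn1 became -0.0190 with CpG-C without CpG-C replicate 1 (-0.0190 to 1.60 with any library left out), and -0.52 between CpG-A and CpG-B with library weights (-1.06 to 1.60 with any library left out). Between CpG-A and CpG-C, Slfn9 became 0.34 with library weights and without the 4 libraries numbered 1 (-0.72 to 0.51 with any library left out), Slfn5 ranged from -0.66 to 0.25 and Slfn2 from -0.87 to 0.42. A minimum of 5 FPKM left out Slfn3. The estimated depth does not bound values listed at 0.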
